A study of Sus scrofa with 8 samples.

Results

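EOMES, MIXL1, GSC, LHX1, FOXA2, SOX17, HHEX, GATA4 and GATA6 are 9 transcription factor genes of mesendoderm and gastrulation, and they are described here by the histone acetylation at their loci in pig epiblast stem cells and pig fibroblasts. They were chosen by name, and each locus was the gene as placed by RefSeq on the pig assembly Sscrofa11.1 with 10 kb on either side. All 9 were found among 16298 genes, the named protein-coding genes of the autosomes and the X chromosome. The measure was H3K27ac, acetylation of lysine 27 of histone H3, profiled by ChIP-seq with antibody ab4729. The pgEpiSC libraries, numbered 1 and 4, came from pig pre-gastrulation epiblast stem cells, labelled as E10 embryonic epiblast. The pEF libraries, numbered 1 and 2, came from porcine embryonic fibroblasts, labelled as E30 fetal. No treatment or genetic change was given for either type. Whether the paired libraries of each type come from separate lines, animals or cultures is not stated, so p-values measure only the spread between these libraries, which may be technical.

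At gastrulation, cells of the epiblast pass through the primitive streak and become mesoderm or definitive endoderm, with mesendoderm as a name for cells that can still give rise to both. NODAL, WNT and BMP signals start this step, and work mostly in mouse embryos and human cells places EOMES, MIXL1, GSC and LHX1 in the streak and its anterior organizer, and FOXA2, SOX17, HHEX, GATA4 and GATA6 in endoderm, with further roles in heart, blood vessels and liver. H3K27ac marks active promoters and enhancers, and a long acetylated stretch around a gene is common where a cell type uses that gene strongly. RNA of these genes was not analysed here.

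The data were 4 lists of islands, stretches where ChIP reads cluster over the input, with 64620 and 74208 islands for pgEpiSC 1 and 4, against 62261 and 57790 for pEF 1 and 2. Islands held 29679982 and 38230571 ChIP reads in the pgEpiSC libraries, against 42444995 and 46383051 in the pEF libraries. Their median length was 4.8 and 4.2 kb in pgEpiSC and 3 and 3.2 kb in pEF. They covered 408.5 and 413.9 Mb in pgEpiSC and 272.9 and 274.5 Mb in pEF, while the median fold over input was 1.80 and 1.67 in pgEpiSC and 3.47 and 3.46 in pEF. Thus pgEpiSC islands were longer and less enriched over the whole genome, and the part of this difference in the results at single genes was not tested except by the alternatives named beside them. Of 6 epiblast markers, 5 had more acetylated length in pgEpiSC by the limma fit used throughout. The 6 summed to 150.3 and 139.9 kb in pgEpiSC, against 16.4 and 13.6 kb in pEF, and NANOG did not pass. Of 6 fibroblast markers, 4 had less acetylated length in pgEpiSC. All 6 summed to 62.2 and 29.6 kb in pgEpiSC, against 248.7 and 247.7 kb in pEF, with COL1A2, COL3A1 and TWIST1 at 0 in both pgEpiSC libraries. PRRX1 and THY1 did not pass. PRRX1 had 40.5 and 16.4 kb in pgEpiSC, against 77.8 and 78.3 kb in pEF, and THY1 had 12 and 5.27 kb, against 15.3 and 11.5 kb in pEF.

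For each gene the acetylated length, the number of kb in the window covered by islands, was compared between types by limma on log2(kb + 1) over all 16298 genes, two-sided, with Benjamini-Hochberg adjustment and a threshold of 0.05. Of the 9 factors, EOMES, GSC, FOXA2 and GATA4 had more acetylated length in pgEpiSC and 0 had more in pEF. Over all genes, 31.9% were higher in pgEpiSC and 10.9% higher in pEF, so calls towards pgEpiSC were common in this fit. The median log2 fold change was 1.77 over the 9 factors and 0.46 over all genes. The same 4 factors passed when libraries were first centred on their median genes, a fit that called 3583 of 15689 genes towards pgEpiSC and 3853 towards pEF, with a median of -0.12. Of the 9 factors, 2 or 3 passed when 1 library was left out, with 2 without pEF 1. MIXL1, LHX1, HHEX and GATA6 had islands but did not pass, and SOX17 had no island in any library. Each type has 2 libraries, and an exact permutation test of a single value between them could not go below p = 0.33, so the calls rest on the spread shared across genes.

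**Figure D1:**
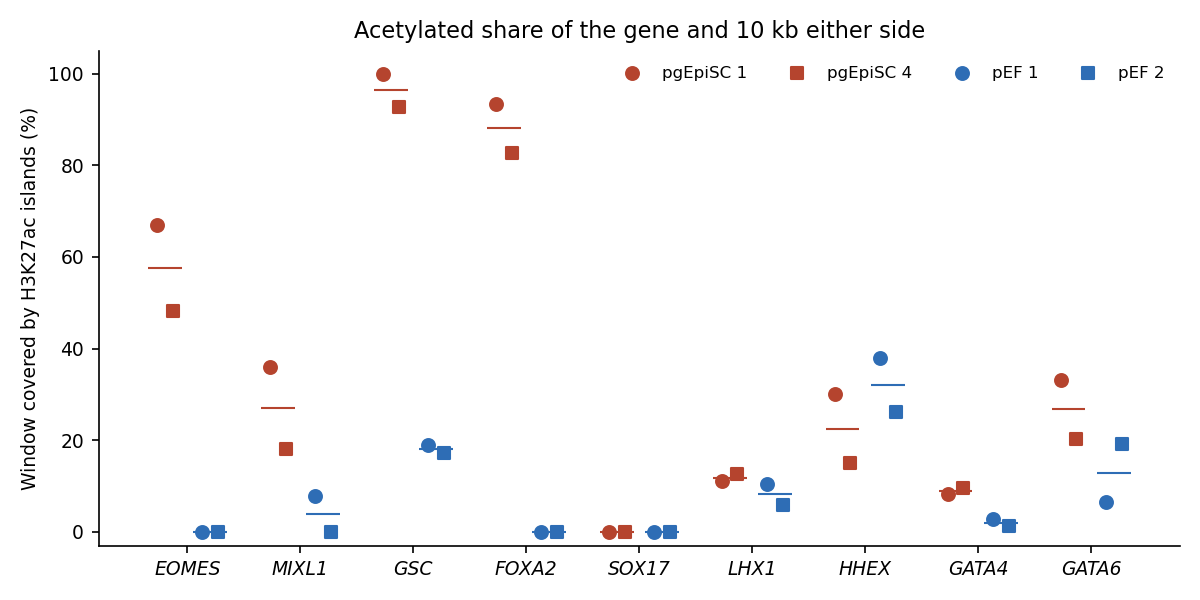
Share of each window, the gene with 10 kb on either side, that islands covered, in percent. Each point is 1 library, with pgEpiSC in red left of pEF in blue, and the short lines are the means of 2 libraries. GSC and FOXA2 stand highest in pgEpiSC at 96.4% and 88.1%, SOX17 lies at 0 in all 4 libraries, and HHEX has the highest mean in pEF at 32.1%.

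Set per length, as the share of each window that was acetylated, the 9 factors fell into an order within each type. In pgEpiSC, GSC had 96.4% ± 5.12 and FOXA2 88.1% ± 7.56 (SD, n = 2 here and in what follows), and their libraries overlapped. EOMES followed with 57.5% ± 13.3, below both and above all others in each library. MIXL1 at 27.1% ± 12.8, GATA6 at 26.7% ± 8.97 and HHEX at 22.6% ± 10.6 could not be ordered within their spread. LHX1 at 11.8% ± 1.05 and GATA4 at 8.91% ± 0.962 lay lower, and SOX17 was at 0. The share depends on window length, which was greatest at GATA4 with 99.7 kb. In kb the order differed, with means of 8.88 at GATA4, 5.7 at HHEX and 3.18 at LHX1. In pEF the order was different. HHEX led with 32.1% ± 8.40, above every other factor in both libraries. GSC had 18.1% ± 1.28 and GATA6 12.9% ± 8.97, which overlapped, and LHX1 had 8.19% ± 3.16, within the spread of GATA6. MIXL1 at 3.87% ± 5.47 overlapped both LHX1 and GATA4, which had 2.01% ± 1.13, and EOMES, FOXA2 and SOX17 were at 0.

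Among the factors of the streak and organizer, EOMES is a T-box factor needed in mouse for definitive endoderm and for epiblast cells to leave the streak. On chromosome 13, EOMES had 17.8 and 12.8 kb of acetylated length in pgEpiSC 1 and 4, against 0 kb in both pEF libraries. Both pgEpiSC values lay above both pEF values, and the log2 fold change was 4.01 ± 0.22 (SE), with an adjusted p of 0.00449 by limma. Because the pEF values were 0, the size of this fold change depends on the 1 kb added to every value. It was larger than that of 97.9% of all genes. The gene, 6.595 kb long, was covered whole in pgEpiSC 1 and over 6.211 kb in pgEpiSC 4 by an island that reached past its lower end. That island, chr13:14206201-14216800 in pgEpiSC 1, held 820 ChIP and 384 input reads at 2.24-fold, and its counterpart in pgEpiSC 4 held 733 and 389 reads at 1.58-fold. A separate island of 5 kb in pgEpiSC 1 and 4.4 kb in pgEpiSC 4 lay 4.42 and 4.82 kb past the upper end. The 2 pgEpiSC libraries shared 71.9% of the bases that either covered. In pEF the nearest islands were 16.4 and 15.8 kb away. The adjusted p was 0.067 when islands under 2-fold were left out and 0.0502 without pEF 1, so the call was lost in both.

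MIXL1, a paired-type homeodomain factor of the primitive streak, had 8.4 and 4.2 kb in pgEpiSC, against 1.8 and 0 kb in pEF. The types did not overlap, yet the 2 libraries within each differed by as much as 4.2 kb, and the log2 fold change of 2.06 ± 0.69 (SE) had an adjusted p of 0.101 by limma. An island over the lower end of the gene was present in both pgEpiSC libraries and in pEF 1. It held 473 reads at 2.47-fold over 5 kb in pgEpiSC 1 and 650 reads at 2.30-fold over 4.2 kb in pgEpiSC 4. In pEF 1 it held 84 reads at 3.04-fold over 0.8 kb, and pEF 2 had none. With a flank of 5 kb in place of 10 kb, MIXL1 passed with an adjusted p of 0.0352.

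GSC, a homeodomain factor of the organizer, carried the most acetylated window of the 9 in pgEpiSC. It had 22.1 and 20.5 kb in pgEpiSC, against 4.2 and 3.8 kb in pEF. Both types were tightly grouped and far apart, with a log2 fold change of 2.16 ± 0.14 (SE) and an adjusted p of 0.00594 by limma. In pgEpiSC 1 the whole 22.1 kb window was covered, so the window itself capped the value. A single island of 36 kb, chr7:116087001-116123000, spanned it there with 3914 ChIP and 1322 input reads at 3.11-fold. In pgEpiSC 4 an island of 25.4 kb, chr7:116098001-116123400, covered the gene with 3534 ChIP and 1126 input reads at 2.63-fold. In pEF a short island sat over the gene itself, 4.2 kb with 345 reads at 3.15-fold in pEF 1 and 3.8 kb with 219 reads at 2.71-fold in pEF 2. All 4 libraries therefore covered the whole of the 2.101 kb gene, and for the gene alone the fold change was 0. The types differed in how far acetylation reached beyond it. The upper end of GSC overlaps a long non-coding RNA gene, LOC106504549, and reads of the 2 genes cannot be told apart.

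ChIP reads were also summed over islands. Islands that overlapped between libraries were merged into regions, and ChIP reads of the 20498 regions found in all 4 libraries were compared by edgeR, which called 22.7% higher in pgEpiSC and 23.4% higher in pEF. The windows of the 9 factors touched 20 merged regions, of which 4 were found in all 4 libraries. The region at GSC held 4055 and 4584 reads in pgEpiSC, against 345 and 219 in pEF. The log2 fold change of these sums was 4.35, with an adjusted p of 0.00148 by edgeR. The lists hold no reads outside islands, so such a sum grows with the length called and is no measure apart from length. The islands over the GSC gene were 36 and 25.4 kb long in pgEpiSC, against 4.2 and 3.8 kb in pEF. Per kb of those islands, ChIP reads beyond the scaled input came to 24.8 and 22.5 per 10000000 reads in islands in pgEpiSC, against 13.2 and 7.84 in pEF, a smaller ratio than that of the sums, and it was not tested.

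LHX1, a LIM-homeodomain factor required in mouse for head formation, had 2.98 and 3.38 kb in pgEpiSC, against 2.8 and 1.6 kb in pEF. The values were close, with a log2 fold change of 0.41 ± 0.25 (SE) and an adjusted p of 0.276 by limma. No library had an island over the gene, and the nearest began 3.82 kb past its upper end in all 4 libraries. That region coincides with the lower end of AATF, the neighbouring gene, 4.23 kb past the upper end of LHX1. It held 206 and 257 reads over 2.4 and 2 kb in pgEpiSC, against 426 and 369 reads over 2.8 and 1.6 kb in pEF, and the log2 fold change of -0.37 had an adjusted p of 0.358 by edgeR. Farther out the libraries separated. Within 50 kb either side of LHX1 there were 26.8 and 35.0 kb in pgEpiSC and 2.8 and 1.6 kb in pEF, a log2 fold change of 3.33 with an adjusted p of 0.00374 by limma. Calls towards pgEpiSC were more common with this flank, at 7087 of 16298 genes. From 10 to 50 kb past the upper end, within AATF as RefSeq places it, pgEpiSC had 23.8 and 25.4 kb and pEF had 0 kb in both libraries. The islands there were weak. Apart from an island at 2.50-fold in pgEpiSC 1 at the near edge, their folds ran from 1.19 to 1.88. The 50 kb fit was not run with islands under 2-fold left out.

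**Figure D2:**
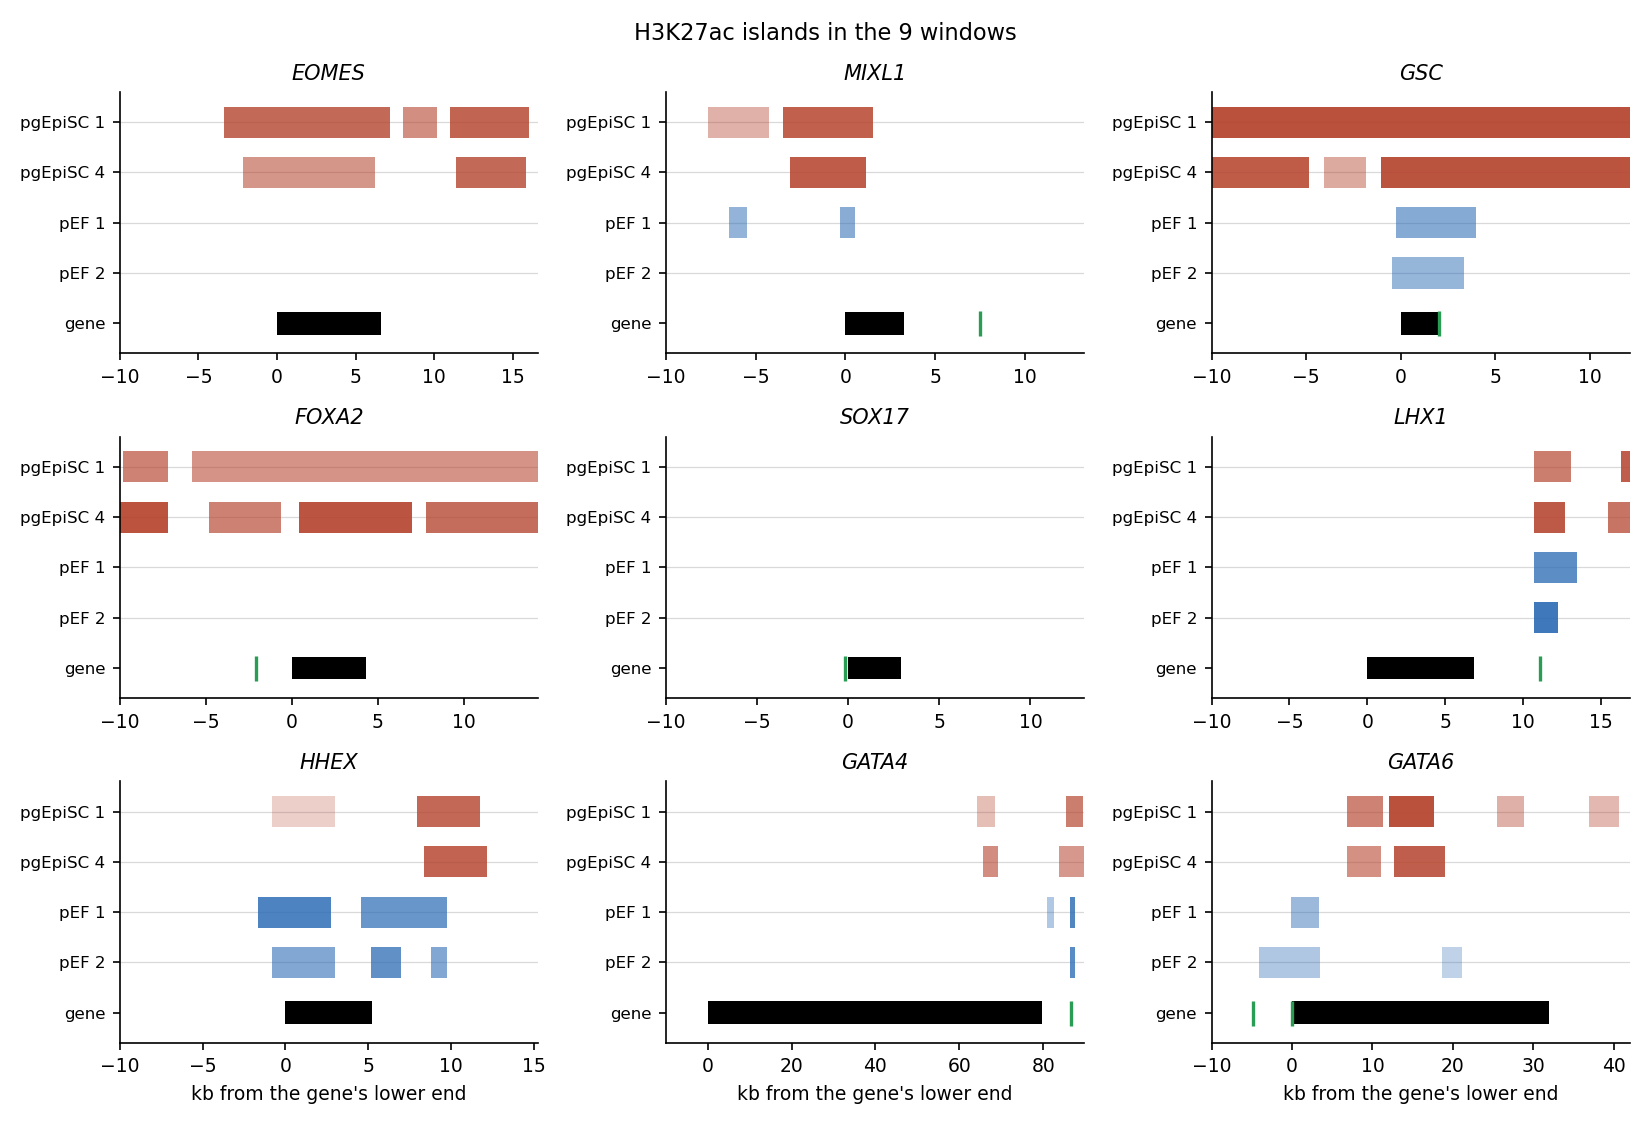
Islands in the 9 windows, with distance from the gene's lower end in kb on each horizontal axis and 1 row per library, pgEpiSC in red above pEF in blue. Deeper colour marks a higher fold over input for that library's list, black bars are the genes and green ticks are ends of other genes. GSC, FOXA2 and EOMES are broadly covered in pgEpiSC, the island nearest LHX1 lies at the end of AATF, and GATA6 is covered in different places in the 2 types.

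Among the endoderm factors, FOXA2 is a forkhead pioneer factor of endoderm, node and notochord. It had 22.7 and 20.1 kb in pgEpiSC, against 0 kb in both pEF libraries. Both pgEpiSC libraries covered most of the window and the groups did not overlap, with a log2 fold change of 4.48 ± 0.16 (SE) and an adjusted p of 0.00290 by limma. This lay above 98.8% of all genes, and again its size depends on the 1 kb added. An island of 29.6 kb, chr17:29991601-30021200, covered the gene in pgEpiSC 1 with 2078 ChIP and 1271 input reads at 1.72-fold. In pgEpiSC 4 the gene lay under an island of 6.6 kb with 1021 ChIP and 330 input reads at 2.59-fold, which left 0.404 kb of its lower end uncovered. The island over the gene had a fold above 43.8% of the list in pgEpiSC 1 and above 88.6% in pgEpiSC 4, but these islands differ in length. In pgEpiSC 4 the stretch was split, with neighbouring islands at 1.74-fold and 1.96-fold. Over all islands of the window the fold was 1.73 in pgEpiSC 1 and 2.12 in pgEpiSC 4. With islands under 2-fold left out, pgEpiSC 1 had 0 kb, pgEpiSC 4 had 9.4 kb and the adjusted p was 0.453 by limma. How far this filter acted through the splitting of islands was not tested. The window also holds part of another gene, LOC110257410, at positions -14.6 to -2.07 kb from the lower end of FOXA2. With stretches near the ends of other genes left out, pgEpiSC had 18.7 and 16.6 kb and the log2 fold change was 4.22, a setting chosen after seeing the data.

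FOXA2 also had the longest acetylated surroundings. Within 50 kb either side, pgEpiSC libraries had 76.3 and 80.9 kb and both pEF libraries had 0 kb, where the nearest islands lay 70.9 and 71.7 kb away. The strongest large island there was not over the gene. It began 36.8 kb from the gene's lower end in pgEpiSC 1 and 37.6 kb in pgEpiSC 4, and was 34.6 and 34.4 kb long. It held 4072 ChIP reads at 3.0-fold in pgEpiSC 1 and 4906 at 2.81-fold in pgEpiSC 4. The same wide view gave GSC 67.7 and 62.9 kb in pgEpiSC and 4.2 and 3.8 kb in pEF, so at GSC nothing was added in pEF beyond the island over the gene. EOMES differed from both, since its 50 kb view held 21.4 and 18 kb in pgEpiSC and 3.6 and 7.6 kb in pEF.

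SOX17, an HMG-box factor of definitive endoderm and of germ cell precursors in pig and human, had 0 kb in all 4 libraries. Its nearest islands were 217 and 56.7 kb away in pgEpiSC 1 and 4, and 58.6 and 56.6 kb away in pEF 1 and 2. Such a gene was not rare, since 609 of the 16298 genes had no island in their window in any library. The lists hold no reads outside islands, and the smallest island held 41 and 45 ChIP reads in pgEpiSC and 32 and 38 in pEF, so acetylation below that level was not detectable.

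HHEX, a homeodomain factor of anterior endoderm, liver and blood vessels, had 7.6 and 3.8 kb in pgEpiSC, against 9.6 and 6.6 kb in pEF. The libraries of the types overlapped, and the log2 fold change of -0.48 ± 0.42 (SE) had an adjusted p of 0.417 by limma. At its lower end the libraries differed in enrichment over input. An island there in pgEpiSC 1 held 172 ChIP and 187 input reads, which is 0.966-fold with an FDR of 1, so the input was as high as the ChIP. In pEF 1 an island at the same end held 1006 ChIP and 196 input reads at 6.70-fold, and in pEF 2 one held 470 and 164 reads at 3.30-fold. No island was there in pgEpiSC 4. The overlap of lengths between the types rested on the pgEpiSC 1 island at this end. With islands under 2-fold left out, HHEX had 3.8 kb in both pgEpiSC libraries, against 9.6 and 6.6 kb in pEF. The log2 fold change was then -0.90 with an adjusted p of 0.11 by limma, which did not pass. The second region, 4.58 to 12.2 kb from the lower end, was found in all 4 libraries. It held 341 and 433 reads over 3.8 kb each in pgEpiSC, against 715 reads over 5.2 kb in pEF 1 and 337 reads over islands of 1.8 and 1 kb in pEF 2. Its pEF libraries lay on either side of the pgEpiSC ones, and the log2 fold change of -0.04 had an adjusted p of 0.946 by edgeR.

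GATA4, a zinc-finger factor of endoderm and heart, lies in the longest window of the 9, 99.7 kb. It had 8.2 and 9.56 kb in pgEpiSC, against 2.8 and 1.2 kb in pEF. The groups did not overlap, and the log2 fold change of 1.77 ± 0.36 (SE) had an adjusted p of 0.0389 by limma. Within the gene, pgEpiSC 1 had an island of 4.2 kb at 1.35-fold and pgEpiSC 4 one of 3.6 kb at 1.64-fold, both 64.3 to 69.3 kb from the lower end, and pEF had none. The rest of the length lay past the upper end. In pEF 1 an island of 1.6 kb began 1.25 kb past that end, and the other islands lay in a region around the lower end of NEIL2, which is 6.97 kb from GATA4. The region there held 290 and 702 reads in pgEpiSC, against 230 and 172 in pEF, with a log2 fold change of 1.67 and an adjusted p of 0.0323 by edgeR, a call lost without pgEpiSC 1 (0.0511), pgEpiSC 4 (0.177) or pEF 2 (0.0634). These sums followed length, with islands of 4 and 9.8 kb in pgEpiSC, against 1.2 kb in both pEF libraries. Density went the other way, with 11.8 and 6.75 reads beyond the scaled input per kb and 10000000 reads in islands in pgEpiSC, against 37.8 and 25.1 in pEF, and folds of 1.94 and 1.56 in pgEpiSC, against 6.12 and 5.34 in pEF. No GATA4 end had an island in pgEpiSC. The limma call was lost with a flank of 5 kb (adjusted p = 0.107), with stretches near the ends of other genes left out (adjusted p = 0.085, chosen after seeing the data) and without any 1 of the 4 libraries (adjusted p from 0.0555 to 0.183), and with islands under 2-fold left out the log2 fold change was -1.53.

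GATA6, a zinc-finger factor of primitive and definitive endoderm and of heart, had 17.2 and 10.6 kb in pgEpiSC, against 3.4 and 10 kb in pEF. The pgEpiSC 4 and pEF 2 libraries were nearly equal, and the log2 fold change of 1.06 ± 0.60 (SE) had an adjusted p of 0.251 by limma. The places covered were different ones. Of the bases covered in both libraries of a type, 9.2 kb in pgEpiSC were in no pEF library, 3.4 kb in pEF were in no pgEpiSC library, and 0 kb were in all 4. In pgEpiSC the shared islands lay inside the gene, from 6.89 to 11.1 kb and from 12.7 to 17.7 kb from the lower end, and the stronger of them reached 3.06-fold in pgEpiSC 1 and 2.24-fold in pgEpiSC 4. In pEF an island lay over the lower end, 3.4 kb with 226 reads at 2.54-fold in pEF 1 and 7.6 kb with 507 reads at 2.1-fold in pEF 2. The lower end of GATA6 overlaps the upper end of LOC100525229, so the pEF island cannot be given to one gene.

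The table of genes used here gives no strand, so starts were not told from ends, and an island within 2 kb of either end of a gene was counted. EOMES and FOXA2 had one in both pgEpiSC libraries and in neither pEF library, a pattern of 7.31% of all genes. GATA6 had one in both pEF libraries and in neither pgEpiSC library, as did 4.48% of all genes. GSC had one in all 4 libraries, as did 67.8% of all genes. SOX17 and LHX1 had one in none, as did 10.1% of all genes. MIXL1 lacked one in pEF 2, HHEX lacked one in pgEpiSC 4, and GATA4 had one in pEF 1 alone. The HHEX island in pgEpiSC 1 was the one at 0.966-fold, and without it HHEX had the pattern of GATA6. The most common pattern of the genome was thus held by 1 of the 9 factors. With islands under 2-fold left out, 0 factors kept the pattern of EOMES and FOXA2, and with ends widened to 5 kb GSC and 2 more had an island in all 4 libraries.

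**Figure D3:**
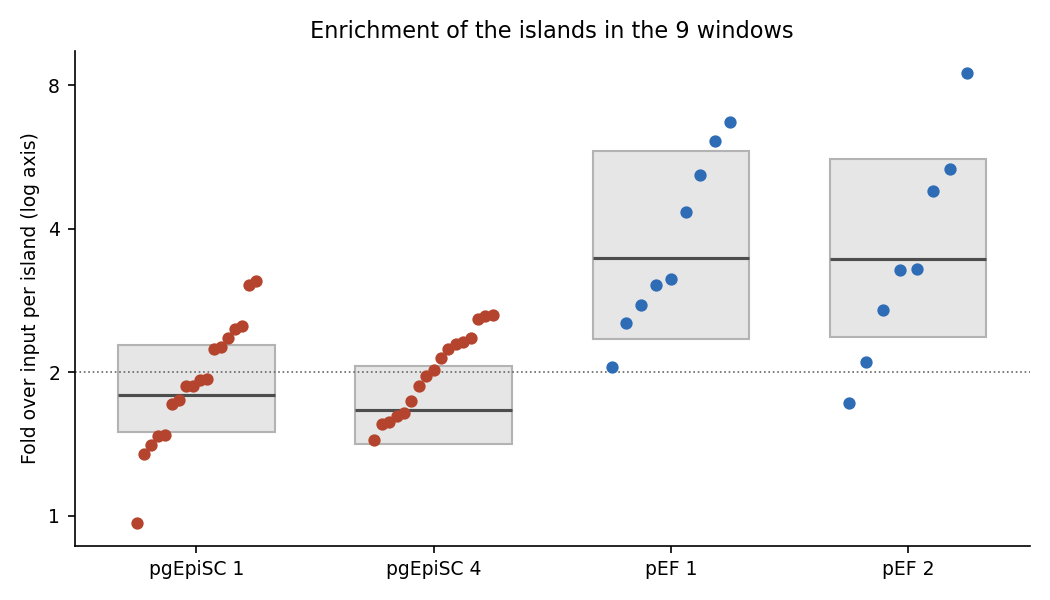
Fold over input of each island in the 9 windows on a log axis, 1 column per library, with pgEpiSC in red left of pEF in blue. Grey boxes are the quartiles of all islands of that library with the median as a line, and the dotted line marks 2-fold. The pgEpiSC islands of the factors have medians of 1.90 and 2.03, against 3.15 and 3.29 in pEF.

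Fold over input was lower in pgEpiSC than in pEF at these islands, as it was over the whole lists. The windows of the 9 factors held 18 and 17 islands in pgEpiSC 1 and 4, against 9 and 8 in pEF 1 and 2. Their median fold, the authors' own value per island, was 1.90 and 2.03 in pgEpiSC and 3.15 and 3.29 in pEF. In pgEpiSC 7 of 18 and 9 of 17 islands reached 2-fold, and in pEF 9 of 9 and 7 of 8 did. Over the whole lists the shares were 37.1% and 27.8% of islands at 2-fold or more in pgEpiSC and 84.7% and 85.6% in pEF. Ranked within its own list, the median island of the factors stood at percentile 57.3 and 73.5 for fold in pgEpiSC, against 44.2 and 47.0 in pEF. In libraries of mixed cells, fewer cells carrying the mark and less of the mark per cell cannot be told apart. The 2 highest folds of the factors in pgEpiSC 1 were the GSC island at 3.11-fold and the GATA6 island at 3.06-fold, while in pEF the highest were the LHX1 neighbour island at 8.49-fold in pEF 2 and the HHEX island at 6.70-fold in pEF 1. Between pgEpiSC and pEF libraries, the bases covered at EOMES and FOXA2 had no overlap, those at GATA6 overlapped by at most 1.98% and those at GSC by 17.2 to 20.5%. At LHX1, 47.3 to 70.9% were shared.

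**Figure D4:**
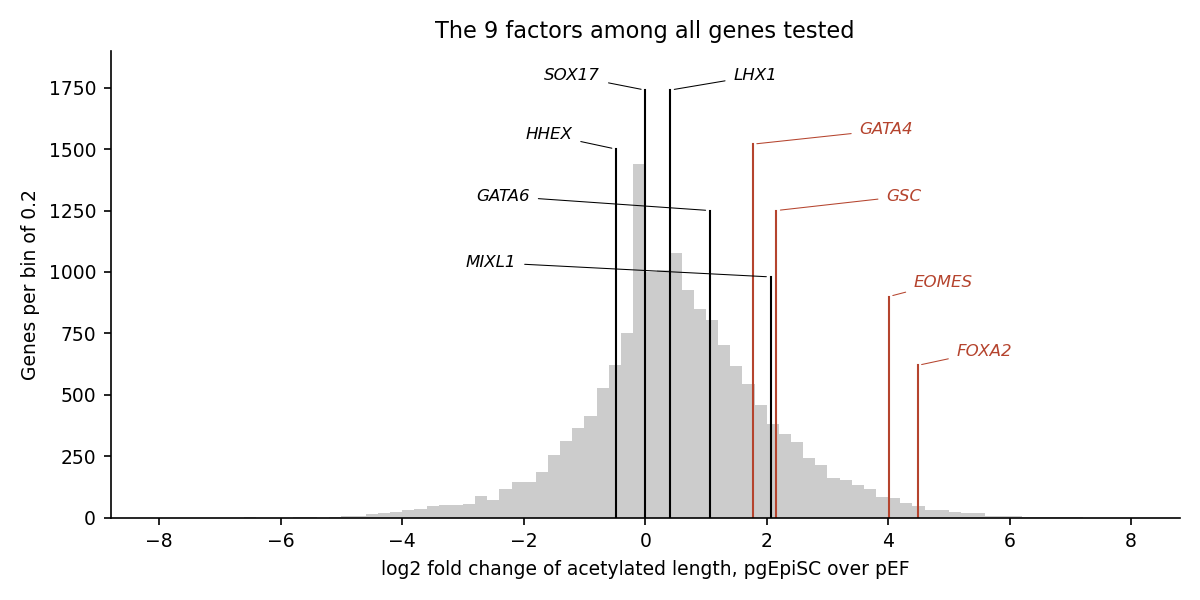
Number of genes per bin of 0.2 in the log2 fold change of acetylated length, pgEpiSC over pEF, for all 16298 genes in grey. Vertical lines mark the 9 factors, with those past the threshold in red, and their heights carry no meaning. EOMES at 4.01 and FOXA2 at 4.48 lie in the upper tail, and HHEX at -0.48 lies left of SOX17 at 0.

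The genes that induce and limit these factors were taken from lists of the same biology. Of 19 inducing signals and receptors, 11 had more acetylated length in pgEpiSC and 1 had more in pEF, with a median log2 fold change of 1.16. With libraries centred the counts were 8 in pgEpiSC and 1 in pEF, and the median was 0.53. GDF3, a NODAL-related ligand, had 25.5 and 25.1 kb in pgEpiSC, against 0 kb in pEF. WNT8A had 27.3 and 22.7 kb in pgEpiSC, against 0 kb in pEF, and WNT3, which starts the streak in mouse, had 71.0 and 68.7 kb in pgEpiSC, against 4.2 and 1.4 kb in pEF. NODAL itself passed, with 21.5 and 24.3 kb in pgEpiSC, against 4 and 3.84 kb in pEF. The 1 higher in pEF was WNT5A, a ligand of non-canonical signalling, with 2.2 and 2.6 kb in pgEpiSC, against 21.2 and 22 kb in pEF. The other 7 did not pass in either direction, and the ligands BMP4 and BMP2 were among them. BMP4 had 5.4 and 0 kb in pgEpiSC, against 5.4 and 5 kb in pEF. BMP2 had 0 and 1.6 kb in pgEpiSC, against 1.8 kb in both pEF libraries. Of 11 transducers, 4 were higher in pgEpiSC and 2 higher in pEF, and with libraries centred the counts were 2 in pgEpiSC and 2 in pEF. FOXH1, the DNA-binding partner of SMAD2, had 22.2 and 22 kb in pgEpiSC, against 6.17 and 5.77 kb in pEF. Of 15 antagonists, 5 were higher in pgEpiSC and 3 higher in pEF, and with libraries centred 4 in pgEpiSC and 7 in pEF. Against 31.9% and 10.9% of all genes, the uncentred pgEpiSC counts of transducers and antagonists were near the background. Among the 5 were the NODAL antagonists CER1, with 19.4 and 17.2 kb in pgEpiSC, against 0 kb in pEF, and LEFTY2, with 24.4 kb in both pgEpiSC libraries, against 3.15 and 3.35 kb in pEF. NOG, a BMP antagonist, had 0 kb in pgEpiSC, against 7.4 and 8 kb in pEF.

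Factors and markers of the lineages that follow went both ways. Over all genes the shares were 31.9% for pgEpiSC and 10.9% for pEF. The lists share some genes, such as CER1, an endoderm marker and an antagonist, and FOXA3, an endoderm factor and a paralogue. Of 24 further streak and mesoderm factors, 2 had more length in pgEpiSC and 7 in pEF, and the median was -0.77. Centring the libraries gave 1 in pgEpiSC and 10 in pEF, with a median of -1.56. CDX4 had 3.8 and 7.4 kb in pgEpiSC, against 0 kb in pEF, and MSGN1 had 1.6 and 2 kb in pgEpiSC, against 0 kb in pEF. With flanks of 5 and 0 kb the log2 fold change of MSGN1 was 0. Its call was also lost with libraries centred, with an adjusted p of 0.0873 by limma. TBX3 had 0 kb in pgEpiSC, against 19.6 and 18 kb in pEF, and TCF21 had 0 kb in pgEpiSC, against 10.8 and 6.8 kb in pEF. Several of these 7, such as SNAI2, HAND2 and TCF21, are also factors of mesenchymal cells. Of 22 endoderm factors and markers, 9 had more length in pgEpiSC and 6 in pEF, and the median was 0.13. Centring the libraries gave 8 in pgEpiSC and 8 in pEF, with a median of 0.15. CXCR4, a receptor used to mark definitive endoderm, had 18.5 and 16.3 kb in pgEpiSC, against 0 kb in pEF, and ONECUT1 had 14.1 and 17.7 kb in pgEpiSC, against 0 kb in pEF. DAB2 had 3 and 6 kb in pgEpiSC, against 82.2 and 108 kb in pEF. The 7 visceral and primitive endoderm markers measured are all part of the 22, so they are no separate evidence. They summed to 90.6 and 80.0 kb in pgEpiSC, against 293.7 and 319.3 kb in pEF. Most of the pEF sum came from DAB2 and CUBN, and CUBN had 44.2 and 33.4 kb in pgEpiSC, against 177 and 175 kb in pEF. HNF4A was higher in pgEpiSC, TTR, CUBN, DAB2 and PDGFRA were higher in pEF, and AFP had no island in any library. APOA1 had 15.8 and 12.4 kb in pgEpiSC, against 5.6 and 1.8 kb in pEF, and did not pass. Whether cells of that kind were among either type was not tested further.

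Paralogues of the 9 factors, genes of the same families, are given as values. Of 16, 5 had more length in pgEpiSC and 2 in pEF, and the median log2 fold change was 0.21. Both counts were near the shares over all genes, 31.9% for pgEpiSC and 10.9% for pEF. Centring the libraries gave 5 in pgEpiSC and 4 in pEF, with a median of -0.28. Beside GATA4 and GATA6, GATA5 had 25.3 and 26.5 kb in pgEpiSC, against 1.14 kb in both pEF libraries, and GATA3 had 3.6 and 8.4 kb in pgEpiSC, against 30 and 22 kb in pEF. Beside LHX1, LHX5 had 18.5 and 21.9 kb in pgEpiSC, against 0 kb in pEF, and LHX9 was higher in pEF. Beside FOXA2, FOXA3 was higher in pgEpiSC, with 19.1 and 15.9 kb in pgEpiSC, against 6.38 and 3.78 kb in pEF, and FOXA1 did not pass. Beside SOX17, SOX18 had 13.5 and 15.5 kb in pgEpiSC, against 1.56 and 3.16 kb in pEF, while SOX7 had no island in any library. The difference between a factor and its paralogue was not tested.

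**Figure D5:**
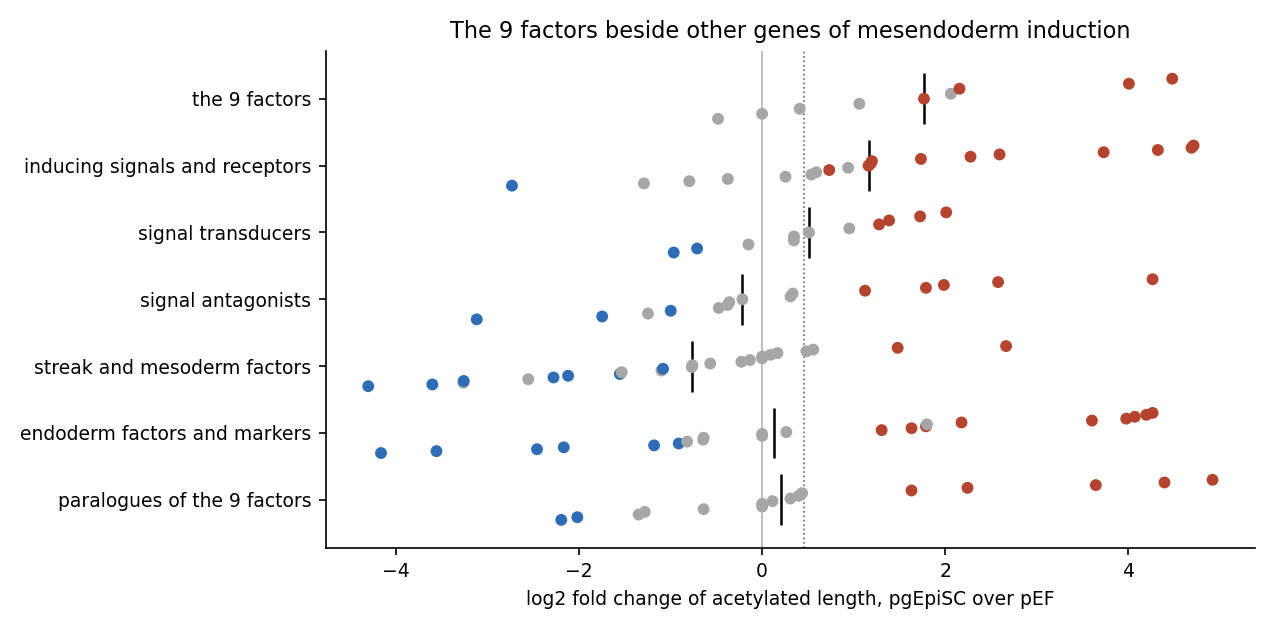
Log2 fold change of acetylated length, pgEpiSC over pEF, for the 9 factors and 6 lists of related genes, 1 point per gene. Red points passed as higher in pgEpiSC and blue points as higher in pEF, black ticks are list medians and the dotted line is the median of all genes at 0.46. The factors, with a median of 1.77, and the inducing signals, with 1.16, lie mostly right of the dotted line, and the streak and mesoderm factors, with -0.77, mostly left of it.

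These counts moved with the enrichment asked of an island. With islands under 2-fold left out, 1150 genes had more length in pgEpiSC and 2692 in pEF, with a median of -0.28, and of the 9 factors GSC alone passed. Of the inducing signals 4 were then higher in pgEpiSC against 3 in pEF, of the transducers 2 against 3 in pEF, and of the antagonists 3 against 3 in pEF. Of the streak and mesoderm factors 1 was higher in pgEpiSC against 11 in pEF, of the endoderm list 2 against 10 in pEF and of the paralogues 2 against 6 in pEF. GATA5 then had a log2 fold change of -1.099 with an adjusted p of 0.0023 by limma. Of the other genes named by rule, 13 of 19 higher in pgEpiSC and 17 of 18 higher in pEF kept their call with this filter. ONECUT1, HNF4A, MSGN1, the epiblast marker SOX2 and the transducer TCF7L1 did not pass. Medians of the transducers, antagonists and paralogues changed sign between alternatives, and that of the endoderm list fell below 0 with this one. Of the other genes named by rule, 16 or 17 of 19 higher in pgEpiSC and 9 to 11 of 18 higher in pEF passed with 1 library left out. WNT3, TCF21 and TTR did not pass without pgEpiSC 1 or without pgEpiSC 4, FOXH1 without pgEpiSC 4, and CDX4, MSGN1, LHX9 and CUBN without pEF 1 or without pEF 2. DAB2 passed only without pgEpiSC 4, SNAI2 only without a pgEpiSC library, SOX18 only without pEF 2, and GATA3 and FOXA3 in none of these 4 fits.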

How the data were processed

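H3K27ac ChIP-seq of 2 cell types was analysed from the deposited lists of islands, 4 in number, each of 1 H3K27ac library. The 4 input libraries entered only through the input reads in those lists. BWA 0.7.15, SAMtools 0.1.19 and SICER 1.1 are named per the submitters' processing notes, while sources used here gave neither the genome build nor the handling of duplicates. The authors deposited, for each island, whole counts of ChIP and input reads, a p-value and an FDR, and a fold, the ratio of ChIP to scaled input. Islands were built of 200 bp windows, and the FDR reached 1, so none had been applied as a limit. Island positions are printed as the lists give them, counted from 1. Genes came from the RefSeq table of Sscrofa11.1, and on 19 of 19 chromosomes its gene ends fell in islands more often than points shifted by 20 kb. No sequence was used here, so the planned description of promoters was not made, and windows at both gene ends replaced windows at starts.

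Acetylated length (in kb, log2 scale with 1 kb added) was compared in limma 3.58.1 with its trend option and 2 residual degrees of freedom. The ChIP reads of merged regions (overlap of at least 1 bp) were compared in edgeR 4.0.16 (quasi-likelihood, TMM factors 1.08, 1.09, 0.935 and 0.905 for pgEpiSC 1, pgEpiSC 4, pEF 1 and pEF 2), both adjusted over all genes or regions. DESeq2 1.42.0, R 4.3.3, Python 3.11.15, pandas 2.3.3 and matplotlib 3.10.9 were also used. Fits were tested on simulated data. All 9 factors are named. Of the other lists, the rule named up to 3 genes for each direction, those with the largest changes among the genes called. NODAL, BMP4, BMP2, FOXA3, FOXA1, SOX18, SOX7, NANOG, AFP, HAND2, APOA1, PRRX1 and THY1 were added after their values were seen. The factors and the lists were chosen with earlier results of these data known. TBXT, CFC1 and AMN were not matched.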

Additional observations from a re-analysis of the deposited data

How the results depend on the processing

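Lengths are log2 fold changes, pgEpiSC over pEF. Leaving out islands under 2-fold gave 3.24 at EOMES and 1.69 at FOXA2, neither past the threshold, -0.53 at LHX1, -1.53 at GATA4, -1.099 at GATA5 and -0.87 at SOX18. It left 1 factor called, 0 with a gene-end island in both pgEpiSC and neither pEF, and 2 in both pEF and neither pgEpiSC. At an FDR under 1e-10 GATA4 had 1.33 and did not pass, and 2 factors, GATA6 and HHEX, had the pEF pattern of gene ends, as with the same number of islands per library. A flank of 5 kb gave 2.14 at MIXL1, which passed, and 1.74 at GATA4, which did not, and one of 50 kb gave 3.33 at LHX1, which passed. Centring each library gave -0.22 at LHX1. Gene-end windows of 5 kb gave 0 factors with the pEF pattern, 3 with all 4 libraries and 1 with none. At the HHEX region the value was 0.19 without TMM and 0.029 with at least 100 reads per library. Alternatives added after the data were seen gave 1.97 at GATA4 without the ends of other genes and 0 at GSC for the gene alone, neither past the threshold. Why these values moved was not tested, except that at GSC the gene was covered whole in all 4 libraries. Leaving out 1 library, with the lone one assumed to vary like the rest, gave 3.79 to 4.23 at EOMES (not past without pEF 1), 1.38 to 2.16 at GATA4 (not past in any), -0.51 to 0.65 at the HHEX region and 1.103 to 2.077 at the GATA4 region (past only without pEF 1), and left 2 or 3 factors called. Over all genes the same step left 1684 to 2188 calls towards pgEpiSC and 548 to 829 towards pEF, where all libraries gave 5196 towards pgEpiSC and 1773 towards pEF. The other settings kept the call and the direction of each factor, but LHX1 was at 0 with flanks of 5 and 0 kb. No paired analysis was possible because the types share only replicate number 1. Islands with few reads over the input limit what short stretches can show.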

Other observations

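Islands outside the windows are given as values. Below MIXL1, an island at positions -36.1 to -30.9 kb from its lower end had 448 ChIP reads at 3.82-fold in pgEpiSC 1 and 689 at 2.31-fold in pgEpiSC 4, against 1737 reads at 11.1-fold in pEF 1 and 1535 at 12.9-fold in pEF 2. Below EOMES, an island about 16 kb away held 134 reads at 1.48-fold in pgEpiSC 1 and 127 at 2.36-fold in pgEpiSC 4, against 484 reads at 7.52-fold in pEF 1 and 610 at 3.597-fold in pEF 2. Above HHEX, islands 34.4 to 53.2 kb from its lower end were found in both pEF libraries and in neither pgEpiSC library. Above GATA4, at the lower end of FDFT1, an island reached 4.19-fold over 16.4 kb in pgEpiSC 1 and 2.84-fold over 18.2 kb in pgEpiSC 4, against 3.85-fold over 10.8 kb in pEF 1 and, in pEF 2, 6.78-fold over 2.8 kb and 2.47-fold over 6.6 kb. These islands were picked after their values were seen and no test was made on them.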
